A study of Mus musculus with 6 samples.

Results

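The class I histone deacetylases of the mouse are Hdac1, Hdac2, Hdac3 and Hdac8, and their RNA levels were compared in frontal cortex after repeated SAHA and after saline. The 4 genes were taken by symbol from the platform's probe annotation, out of 19938 genes represented by 1 probe set each. They have 5 probe sets among the 35556 of the array, since Hdac1 has 2. SAHA (suberoylanilide hydroxamic acid, vorinostat) blocks the zinc-dependent deacetylases, to which all 4 enzymes belong.

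The SAHA group held 3 libraries from mice injected with 20 mg per kg SAHA for 21 days, and the saline group held 3 libraries from mice given vehicle in the same way, which the titles call saline. All mice were wild-type 129S6/SvEv animals of 8 to 12 weeks, and bilateral frontal cortex was dissected 1 day after injections ended. Each library was run on 1 whole-transcript array, and the values are log2 signals made with RMA. The labels do not say whether each library came from its own mouse. The p-values therefore cover the spread between libraries alone, and part of that spread may be technical.

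Class I deacetylases are nuclear enzymes that remove acetyl groups from lysines of histones and other proteins. Hdac1 and Hdac2 are close paralogs that form the catalytic core of the Sin3, NuRD, CoREST and MiDAC complexes. Hdac3 is the catalytic subunit of the NCoR and SMRT complexes, and Hdac8 acts without such a complex and deacetylates the cohesin subunit Smc3. In the mouse brain Hdac2 and Hdac3 are known for restraining genes of synaptic plasticity and memory. The arrays measured RNA, which says nothing about the activity of the enzymes that SAHA blocks.

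No RefSeq start site was at hand for Hdac1, and Hdac3 was left out. Start sites were used for Hdac2 and Hdac8. Their 250 bases upstream of the start (GRCm38.p6) are shown to set a start rich in CpG dinucleotides, that of Hdac2, beside one with the median count, that of Hdac8. Hdac2 is read at chr10:36974294-36974543 on the plus strand and Hdac8 at chrX:102505159-102505408 on the minus strand, 5′ to 3′, with CpG dinucleotides in capitals.
Hdac2: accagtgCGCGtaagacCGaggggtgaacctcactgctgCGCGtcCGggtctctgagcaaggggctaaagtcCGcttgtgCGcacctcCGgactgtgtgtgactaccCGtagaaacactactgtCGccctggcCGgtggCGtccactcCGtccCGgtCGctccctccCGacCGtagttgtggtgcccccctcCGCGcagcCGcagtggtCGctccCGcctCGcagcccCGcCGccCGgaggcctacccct
Hdac8: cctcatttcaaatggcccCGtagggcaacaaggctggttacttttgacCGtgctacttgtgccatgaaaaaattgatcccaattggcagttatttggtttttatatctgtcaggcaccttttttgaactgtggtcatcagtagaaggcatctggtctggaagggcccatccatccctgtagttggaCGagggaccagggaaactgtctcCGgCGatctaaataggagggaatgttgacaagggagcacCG
The Hdac2 window held 27 CpG dinucleotides and was 68.8% G and C. The Hdac8 window held 6 CpG dinucleotides and was 48.4% G and C, where the medians over 32851 windows of the same length were 6 and 52.4%. Both strands were searched for 4 motifs. The GC box GGGCGG, which contains a CpG, occurred in the Hdac2 window and in 32.7% of all windows. CCAAT and TATAAA occurred in the Hdac8 window, and in 33.8% and 12.4% of all windows. CCGGAAG, found in 6.91% of windows, was in neither. These matches describe letters only, and no binding or methylation was measured.

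No class I deacetylase differed between SAHA and saline past the test. By limma with Benjamini-Hochberg adjustment over all 19938 genes, 0 of 4 members were called, against 0% of all genes, and their adjusted p lay between 0.44 and 0.887. At an unadjusted p under 0.05 the count was also 0 of 4 members, where 17.4% of all genes lay. All 4 differences were below 0 in SAHA, as for 47.1% of all genes, and they lay between -0.089 and -0.023 log2. Differences varied with signal over the whole array: with the genes in 10 bins of equal size, bins 7 to 10, the brightest, had medians of -0.059 to -0.024, and bins 1 to 6 had medians of 0.019 to 0.11. All 4 members lay in bins 7 to 10. The sign of Hdac1 turned after quantile and cyclic loess normalization. For the brightest probe set of each gene, as deposited, the 95% intervals allow a level at most 16.1% lower and at most 10.7% higher in SAHA. The dimmer Hdac1 probe set and some alternatives had intervals that reach farther. In whole tissue, fewer cells of a type and less RNA per cell cannot be told apart.

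Hdac1 had log2 signals of 8.46, 8.56 and 8.58 in SAHA replicates 1 to 3, against 8.66, 8.48 and 8.53 in saline replicates 1 to 3. The groups overlapped, and the highest and the lowest library were saline replicate 1 and SAHA replicate 1. The difference was -0.023 log2 (SE 0.071, 95% interval -0.19 to 0.14), or 0.984-fold, at an adjusted p of 0.887 in limma. An exact two-sided permutation test over the 6 libraries gave p = 0.8, where 0.1 is the smallest p it can give. Without saline replicate 1 the Hdac1 difference was 0.030, and without SAHA replicate 1 it was 0.012, both with the opposite sign.

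The second probe set annotated to Hdac1 was dimmer. It read 8.23, 8.33 and 8.32 in SAHA replicates 1 to 3, against 8.50, 8.32 and 8.36 in saline replicates 1 to 3. Saline replicate 1 was again the highest and SAHA replicate 1 the lowest, and saline replicate 2 lay within the SAHA range. Its difference was -0.10 log2 (SE 0.072), at an adjusted p of 0.524 in limma over all probe sets. The 2 Hdac1 probe sets therefore gave differences of -0.023 and -0.10. RefSeq lists Hdac1-ps among the synonyms of Hdac1. The 20 annotated probe sets nearest in number to the dimmer probe set all belong to genes of chromosome 17, while those nearest to the brighter one all belong to genes of chromosome 4, where Hdac1 lies. The files do not give the position of either probe set, so whether the dimmer one reads a copy of the gene was not tested.

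Hdac2 had log2 signals of 10.85, 10.91 and 10.84 in SAHA replicates 1 to 3, against 11.08, 10.88 and 10.91 in saline replicates 1 to 3. Saline replicate 1 stood above the 5 other libraries, which lay within 0.071 log2 of each other. The difference was -0.089 (SE 0.071, 95% interval -0.25 to 0.077), or 0.940-fold, at an adjusted p of 0.536 in limma and p = 0.3 in the exact permutation test. Without saline replicate 1 it was -0.026, so 1 library carried most of its size. After quantile normalization it was -0.039 and after cyclic loess -0.036. Hdac2 lay in the brightest bin of signal, whose median difference was -0.051.

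Hdac3 was the member whose groups did not overlap. Its log2 signals were 9.16, 9.20 and 9.22 in SAHA replicates 1 to 3, against 9.27, 9.32 and 9.26 in saline replicates 1 to 3. The spread was narrow, with an SD of 0.032 in SAHA and 0.035 in saline (n = 3 each). The difference was -0.088 (SE 0.057, 95% interval -0.22 to 0.043), or 0.941-fold, at an adjusted p of 0.44 in limma. The exact permutation test gave p = 0.1, the smallest it can give. Groups that did not overlap, with SAHA lower, were found for 1 of 4 members and for 10.4% of all genes, or 23.9% in either direction. After quantile normalization the Hdac3 difference was -0.016 and after cyclic loess -0.028, and the groups overlapped under both. With each library left out in turn it stayed between -0.10 and -0.068. Its bin of signal, which also holds Hdac1, had a median difference of -0.059.

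Hdac8 had log2 signals of 7.62, 7.85 and 7.93 in SAHA replicates 1 to 3, against 7.81, 7.89 and 7.87 in saline replicates 1 to 3. It had the widest spread of the 4 members in SAHA, with an SD of 0.16, against 0.042 in saline (n = 3 each). SAHA replicate 1 was the lowest library and SAHA replicate 3 the highest. The difference was -0.053 (SE 0.086, 95% interval -0.25 to 0.15), or 0.964-fold, at an adjusted p of 0.771 in limma and p = 0.8 in the exact permutation test. Without SAHA replicate 1 the Hdac8 difference was 0.036, with the opposite sign, and without SAHA replicate 3 it was -0.12. Its bin of signal had a median difference of -0.024.

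**Figure D1:**
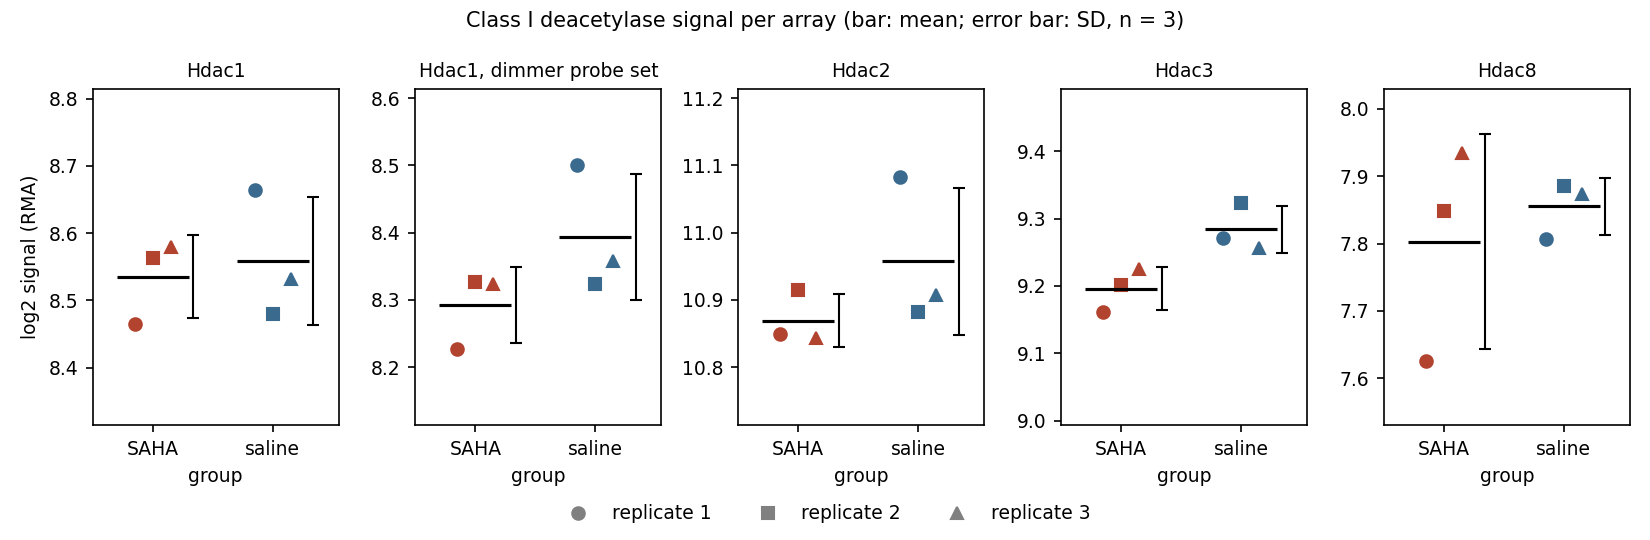
Log2 signal of each class I deacetylase probe set per array, in SAHA (red, left) and saline (blue, right). Symbols mark the replicate number, bars the mean and error bars the SD (n = 3); every panel spans the same range of log2 signal. Saline replicate 1 tops both Hdac1 panels and Hdac2, the Hdac3 groups do not overlap, and Hdac8 spreads from 7.62 to 7.93 in SAHA.

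X- and Y-linked transcripts set 2 libraries apart, which touches Hdac8, an X-linked gene, and the values of saline replicate 1. Xist, the RNA that silences an inactive X chromosome, was at 4.63 to 4.86 in SAHA, against 10.91, 4.86 and 4.88 in saline replicates 1 to 3. The Y-linked gene Eif2s3y was at 9.18, 9.24 and 7.80 in SAHA replicates 1 to 3, against 9.20 to 9.25 in saline. The Y-linked Kdm5d and Uty were also lowest in SAHA replicate 3, at 7.23 and 6.74. Hdac8 was at 7.81 in saline replicate 1, the lowest of its group, and at 7.93 in SAHA replicate 3, the highest of its group. Relative to the saline mean, the median of 739 X-linked genes was 0.018 in saline replicate 1, and it was between -0.035 and -0.0063 in the other libraries. Without both libraries the differences were 0.0079 for Hdac1, -0.013 for Hdac2, -0.11 for Hdac3 and -0.14 for Hdac8, and 0 of the 4 were called in limma. Without those 2 libraries the groups of Hdac3 and Hdac8 did not overlap. With 2 libraries left in each group that is easily reached, and its share over all genes was not counted. What sets the 2 libraries apart was not tested.

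All 4 members had a signal above 6.34, the 95th percentile of 1194 olfactory and vomeronasal receptor genes. The markers of excitatory neurons, GABAergic interneurons, astrocytes and oligodendrocytes all lay above it too. So did all measured markers of oligodendrocyte precursors, endothelium and striatal medium spiny neurons, 7 of 8 of microglia and 2 of 6 of choroid plexus. The summed signal of 6 endothelial markers was 9.97 to 10.06 in SAHA, against 9.90 to 9.92 in saline, and that of the 2 measured red blood cell genes, of 7 listed, was 7.89 to 8.06 in SAHA, against 7.76 to 7.86 in saline. Both sums were higher in all 3 SAHA libraries than in any saline library. They were singled out from 10 marker lists after the values were seen, and the sums of the other lists overlapped between the groups. Gene by gene, 5 of the 6 endothelial markers were higher and 1 lower, and the groups did not overlap for 1, Slco1a4. Of the 2 red blood cell genes they did not overlap for 1, Slc4a1, whose mean signal of 6.37 was close to 6.34. Of all genes, 13.6% had groups that did not overlap with SAHA higher. In that direction it was also 3 of 6 excitatory neuron markers, and 2 of 8 each for GABAergic interneurons and astrocytes. The lists of oligodendrocyte precursors and choroid plexus had 1 such marker each. With SAHA lower it was 1 of 6 for excitatory neurons and 2 of 8 for microglia, against 10.4% of all genes. Myelin genes were lower in SAHA for 6 of 7. Their summed signal ran between 11.63 and 12.02 in SAHA and between 11.82 and 11.90 in saline on the log2 scale. SAHA replicate 3 had the highest myelin median of the 6 libraries, 0.12 relative to the saline mean, and SAHA replicates 1 and 2 had -0.20 and -0.22. The part of these marker differences in the members' values was not tested.

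**Figure D2:**
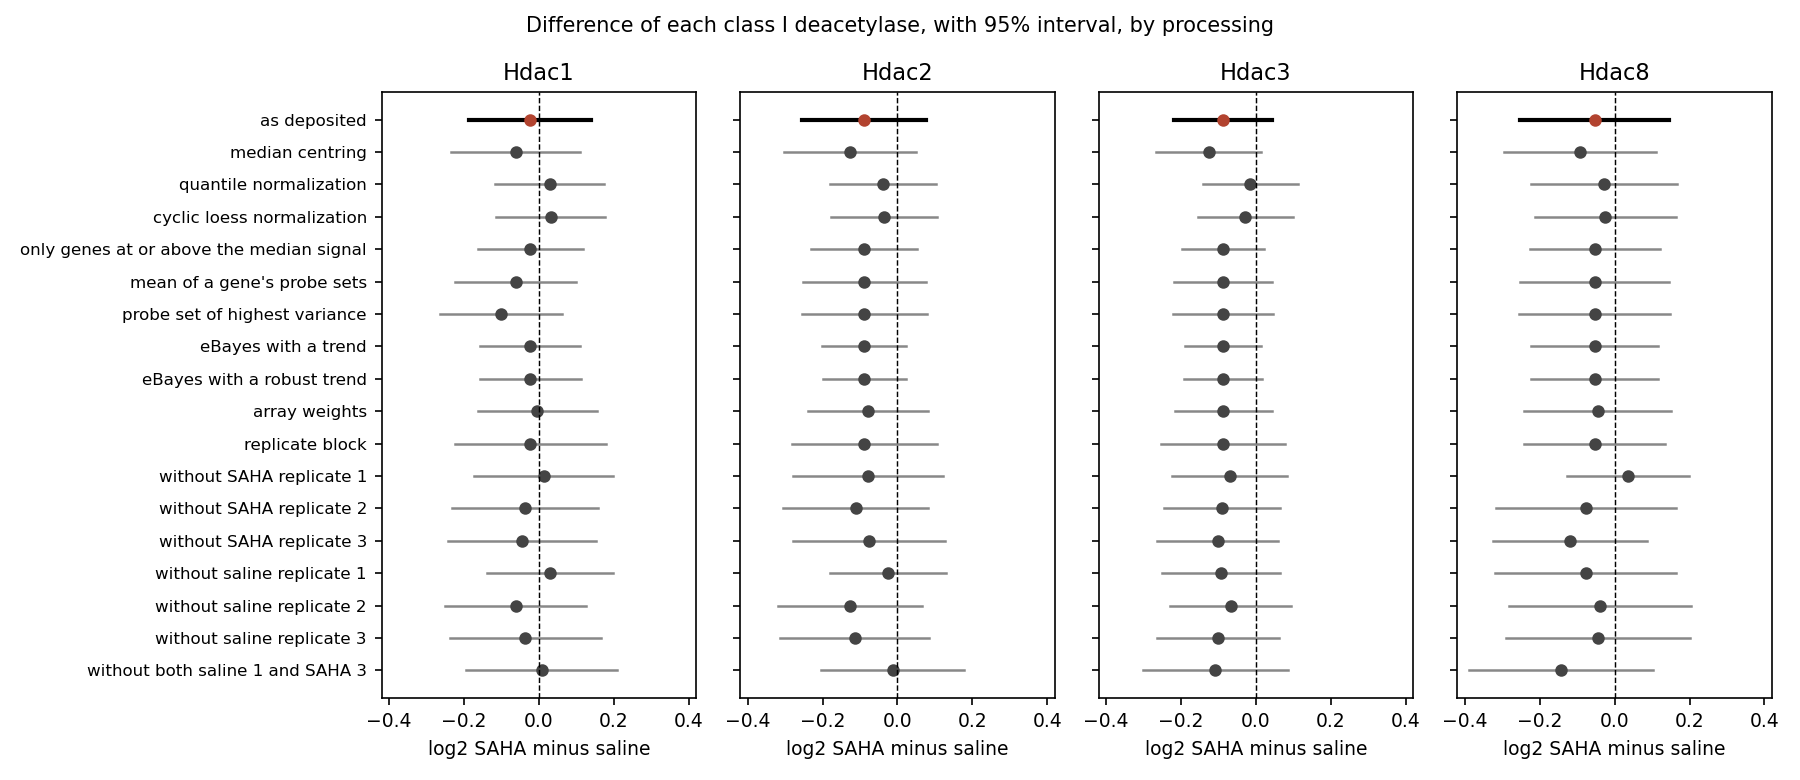
Difference of Hdac1, Hdac2, Hdac3 and Hdac8 in log2, SAHA minus saline (horizontal axis), with the 95% interval of the fit, as deposited (red, top) and under 17 alternatives (grey). Every interval holds 0, the Hdac1 estimate falls on both sides of 0, and that of Hdac3 stays below it.

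The shape of each profile over the 6 arrays was then set against those of 9670 other genes at or above the median signal. Likeness was the root mean square difference between profiles centred on their own means, in log2, over 6 arrays. The genes were picked by this likeness, so the highs, lows and differences they share with a member follow from the choice. The genes nearest to Hdac1 were Mrps22 at 0.015, a mitochondrial ribosomal protein, Pip5k1b at 0.016, a phosphoinositide kinase, and Plxdc2 at 0.017, a membrane protein. Each of these had its highest signal in saline replicate 1, as Hdac1 did.

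Nearest to Hdac2 were Gnai3 at 0.0084, an inhibitory G protein subunit, Emc2 at 0.010, a subunit of the endoplasmic reticulum membrane complex, and Nucks1 at 0.011, a chromatin-associated protein. Gnai3 read 8.21, 8.29 and 8.20 in SAHA replicates 1 to 3, against 8.45, 8.25 and 8.26 in saline replicates 1 to 3. It shows the raised saline replicate 1 that Hdac2 showed.

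Nearest to Hdac3 were Cct2 at 0.0097, a chaperonin subunit, Sqstm1 at 0.012, an autophagy adaptor, and Chrna4 at 0.013, a nicotinic acetylcholine receptor subunit. Cct2 differed by -0.088 (SE 0.057), Sqstm1 by -0.097 (SE 0.055) and Chrna4 by -0.086 (SE 0.059). Nearest to Hdac8 were Fstl1 at 0.020, a secreted glycoprotein, Lekr1 at 0.025 and Rnf39 at 0.026. All were lowest in SAHA replicate 1 and highest in SAHA replicate 3. For scale, the median root mean square difference to all genes searched was 0.094 for Hdac2 and 0.114 for Hdac8.

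**Figure D3:**
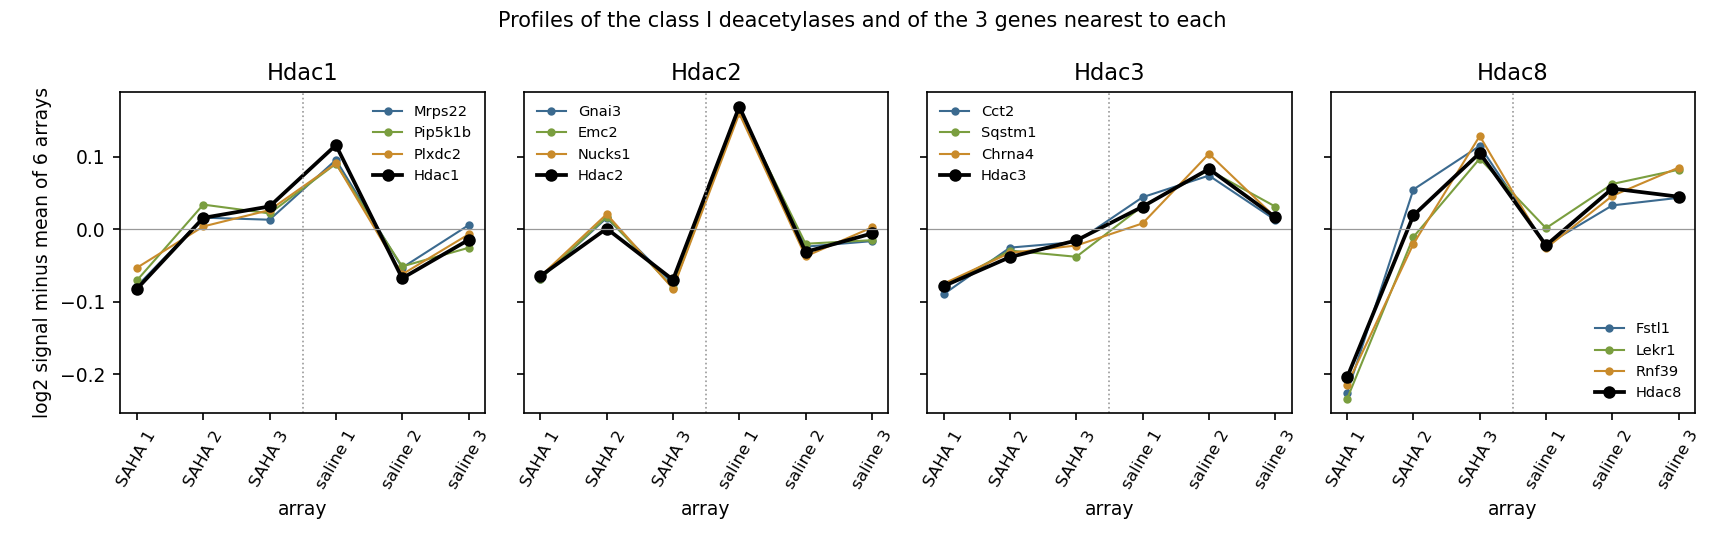
Centred log2 signal over the 6 arrays (horizontal axis) for each class I deacetylase (black) and the 3 genes nearest to it by root mean square difference (colours). Hdac1 and Hdac2 peak in saline replicate 1, Hdac3 lies below its mean in all 3 SAHA arrays, and Hdac8 dips in SAHA replicate 1.

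The partners of these enzymes were counted from 13 lists, which hold 127 measured genes, each counted once. By limma with adjustment over all genes, 0 of 127 were called, as for 0% of all genes. At an unadjusted p under 0.05, 5 were higher and 7 lower in SAHA, against 11.9% and 5.56% of all genes. The median difference over the 127 was -0.038, and over all genes it was 0.011. Of the 127 genes, 100 lay in bins 7 to 10 of signal, and the median of the 127 genes' own bin medians was -0.050.

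Among the complexes that hold Hdac1 and Hdac2, the Sin3 list had 2 of 14 genes higher and 12 lower, with a median difference of -0.052. That median was -0.0070 after quantile normalization, and -0.024 or -0.084 without SAHA replicate 1 or saline replicate 3. Sin3a, the scaffold of the complex, read 8.39, 8.49 and 8.44 in SAHA replicates 1 to 3, against 8.56, 8.70 and 8.59 in saline replicates 1 to 3. The groups did not overlap, which the rule for naming genes requires. In the Sin3 list this held for 1 of 14 genes with SAHA lower, against 10.4% of all genes. Sin3a differed by -0.18 (SE 0.064) at an adjusted p of 0.22 in limma. NuRD subunits had 4 of 13 higher and 9 lower, with a median of -0.026 that was 0.034 after quantile and 0.028 after cyclic loess normalization. None of the 13 was at an unadjusted p under 0.05. CoREST subunits had 5 of 9 higher and 4 lower, with a median of 0.0034 that was -0.036 after median centring. Without SAHA replicate 2, SAHA replicate 3 or saline replicate 2 it was -0.0096, -0.030 or -0.0053. Kdm1a, the histone demethylase of CoREST, differed by -0.046 (SE 0.054), and its sign turned under both normalizations. The 3 measured MiDAC genes lay between -0.00073 and 0.021. Their median of 0.0017 was -0.037 after median centring, and it was -0.015, -0.031 or -0.027 without SAHA replicate 1, SAHA replicate 3 or saline replicate 1.

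Of the NCoR and SMRT complexes, the partners of Hdac3, 3 of the 5 listed genes were measured and all 3 were lower. Their median was -0.026, and it was 0.039 after quantile and 0.031 after cyclic loess normalization. None was at an unadjusted p under 0.05, and Gps2, Tbl1x and Tbl1xr1 lay between -0.061 and -0.00096. Without saline replicate 3 the median was -0.012.

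Cohesin, its loader and its regulators, which include the substrate of Hdac8, had 11 of 12 genes lower and 1 higher. The median was -0.079, and it was -0.019 after quantile normalization and -0.053 without SAHA replicate 1. Nipbl, the cohesin loader, read 9.41, 9.56 and 9.51 in SAHA replicates 1 to 3, against 9.62, 9.69 and 9.65 in saline replicates 1 to 3. It differed by -0.16 (SE 0.063), at an adjusted p of 0.252 in limma. Its groups did not overlap, which the rule for naming genes requires. In the cohesin list this held for 2 of 12 genes with SAHA lower, against 10.4% of all genes. After quantile normalization Nipbl differed by -0.098. Pds5a, a cohesin regulator, differed by -0.10 (SE 0.063), by -0.057 without SAHA replicate 1, and by -0.049 and -0.042 after quantile and cyclic loess normalization. Smc3, the substrate, differed by -0.010 (SE 0.077).

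Recruiting factors, which bring the complexes to DNA, had 12 of 22 higher and 10 lower, with a median of 0.026 that was -0.013 after median centring. Leaving out saline replicate 2 gave 0.00083, and leaving out SAHA replicate 2 or 3 gave 0.010. In limma, 3 of the 22 were higher and 2 lower at an unadjusted p under 0.05, against 11.9% and 5.56% of all genes. Ctbp2, a corepressor, had the smallest p of all the partners. It read 7.39, 7.52 and 7.36 in SAHA replicates 1 to 3, against 7.15, 7.02 and 7.08 in saline replicates 1 to 3. Ctbp2 differed by 0.34 (SE 0.069), 0.33 after quantile normalization, at an adjusted p of 0.12 in limma. Hes5, a Notch target and repressor, differed by 0.23 (SE 0.063) at an adjusted p of 0.157. Both were named by a rule that requires groups that do not overlap. In the whole list the groups did not overlap for 6 of 22 genes with SAHA higher, against 13.6% of all genes. With SAHA lower it was 4 of 22, against 10.4% of all genes.

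Kinases and phosphatases that act on class I deacetylases were lower for all 6 measured genes, with a median of -0.088. It was -0.040 after quantile normalization and -0.057 without SAHA replicate 1. Ppp1ca and Ppp1cc, catalytic subunits of protein phosphatase 1, differed by -0.11 (SE 0.060) and -0.11 (SE 0.069), and 0 of the 6 were at an unadjusted p under 0.05. After quantile normalization they differed by -0.056 and -0.052, and without SAHA replicate 1 Ppp1cc differed by -0.052. Inositol phosphates bind the complexes of Hdac1 and Hdac3. Of their synthesis genes, 3 of 7 were higher and 4 lower, with a median of -0.051 that was 0.0013 after quantile normalization. It was -0.082 without SAHA replicate 3, and -0.024 or -0.026 without saline replicate 2 or 3. Ipmk, inositol polyphosphate multikinase, read 9.34, 9.29 and 9.44 in SAHA replicates 1 to 3, against 9.21, 9.18 and 9.11 in saline replicates 1 to 3. Ipmk differed by 0.19 (SE 0.064), at an adjusted p of 0.211 in limma, while Ip6k2, another inositol phosphate kinase, differed by -0.081 (SE 0.060). Without saline replicate 1 the Ip6k2 difference was -0.046, and after quantile normalization it was -0.019.

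Of the other deacetylases limma called 0 of 7 for class II and IV and 0 of 7 for the sirtuins, which SAHA does not inhibit. Their medians were 0.011 and -0.030, and that of the class I enzymes was -0.070. After quantile normalization the class I median was -0.022 and the sirtuin median -0.014. The class I median was -0.027 after cyclic loess normalization and -0.029 without SAHA replicate 1. The class II and IV median was -0.028 after median centring, and -0.022 or -0.012 without SAHA replicate 1 or saline replicate 1. The sirtuin median was 0.017 or 0.0033 without SAHA replicate 3 or saline replicate 1. In class II, Hdac7 was the 1 gene at an unadjusted p under 0.05, where 17.4% of all genes lay. It was named after its values were seen, at 0.23 (SE 0.094) with overlapping groups. Among the sirtuins, Sirt1 differed by -0.16 (SE 0.072). Acetyltransferases, which oppose the deacetylases, had 8 of 10 lower and 2 higher, with a median of -0.074 that was -0.018 after quantile normalization and -0.040 without SAHA replicate 1. Hat1 and Kat8, enzymes that acetylate histone H4, differed by -0.22 (SE 0.091) and -0.18 (SE 0.073). Their adjusted p in limma was 0.264 and 0.267. Without saline replicate 1 the Hat1 difference was -0.13, and with both libraries that stood apart left out, Hat1 differed by -0.12 and Kat8 by -0.093.

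Neuronal genes described as bound by HDAC2 in the mouse brain had 5 of 15 higher and 10 lower, with a median of -0.045 that was 0.016 after quantile and 0.010 after cyclic loess normalization. Without SAHA replicate 1 it was -0.027. Fos, an activity-induced AP-1 subunit, read 6.80, 6.97 and 6.88 in SAHA replicates 1 to 3, against 7.11, 7.14 and 7.17 in saline replicates 1 to 3. It was the 1 of 15 genes of this list at an unadjusted p under 0.05, where 17.4% of all genes lay. Its difference was -0.26 (SE 0.064), at an adjusted p of 0.145 in limma. Gria1, an AMPA receptor subunit, differed by -0.11 (SE 0.059). Groups did not overlap with SAHA lower for 4 of the 15 genes, Fos and Gria1 among them, against 10.4% of all genes. With SAHA higher that count was 0, against 13.6% of all genes. After quantile normalization the Gria1 difference was -0.061.

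**Figure D4:**
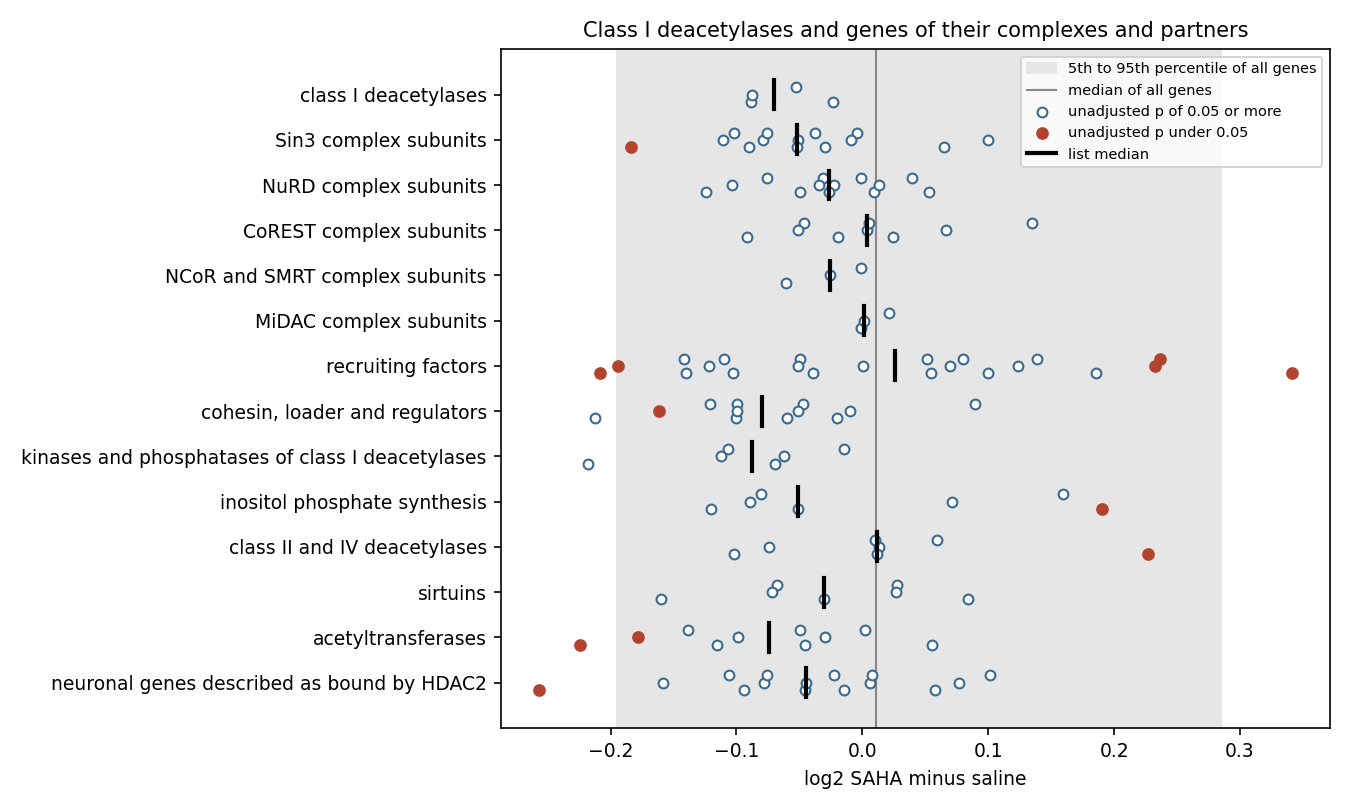
Difference in log2, SAHA minus saline (horizontal axis), of each measured gene of the class I deacetylases and of 13 lists of partners. Filled points have an unadjusted p under 0.05 in limma, black bars are list medians and the grey band runs from the 5th to the 95th percentile of all genes. All 4 class I genes lie inside the band, and Ctbp2 at 0.34 lies farthest out.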

How the data were processed

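Per the labels' protocols, total RNA of frontal cortex was amplified, biotin-labelled and run on whole-transcript ST arrays. The deposited values are log2 signals per probe set, made with Affymetrix Expression Console and RMA per the submitters' processing notes, with no version named. RMA normalises between arrays, so the value of a probe set also depends on the other values of its array and on the other arrays.

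Sample titles gave the groups and the replicate numbers, and 0 columns were left unused. Of 35556 probe sets, 21789 carry exactly 1 gene symbol. The brightest of these stood for each gene, which left 19938 genes, of which 19855 matched RefSeq (GRCm38.p6) by Entrez identifier. The contrast of SAHA with saline was fitted in limma 3.58.1 (R 4.3.3; lmFit, then eBayes), with no block and no filter. P-values are two-sided and were adjusted by Benjamini-Hochberg over all genes, with calls at 0.05. A difference is the SAHA mean minus the saline mean. Precision is limited by the number of arrays: the median SE over all genes was 0.0771.

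The members, lists and tests were chosen with earlier results of these data known. The genes named are the 4 members and, in each partner list, the 2 of smallest p at or above the median signal whose groups did not overlap. To these come the 3 nearest profiles of each member, taken from RefSeq genes in the brighter part (median or above) with Gm and Rik symbols left out, and the X- and Y-linked Xist, Eif2s3y, Kdm5d and Uty. Smc3, Gps2, Tbl1x, Tbl1xr1, Hdac7 and the markers Slco1a4 and Slc4a1 were added after their values were seen. Alternatives covered scaling, a signal filter, the choice of probe set, the variance model, array weights, the replicate number as a block and libraries left out.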

Additional observations from a re-analysis of the deposited data

How the results depend on the processing

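Under each of the 17 alternatives fitted, limma called 0 of 4 class I deacetylases and 0 partner genes. Adjusted p of the members lay between 0.313 and 0.984. Hdac2 and Hdac3 kept their sign under all 17. Hdac1 turned to 0.029 after quantile normalization, 0.032 after cyclic loess normalization, 0.012 without SAHA replicate 1, 0.030 without saline replicate 1 and 0.0079 without saline replicate 1 and SAHA replicate 3. Hdac8 turned to 0.036 without SAHA replicate 1, and Kdm1a to 0.022 and 0.013 under the quantile and loess settings. With each library left out in turn, Hdac1 lay between -0.062 and 0.030, and Hdac8 between -0.12 and 0.036. The cause was not tested. Over all genes, limma called 0 as deposited, where 3472 had an unadjusted p under 0.05, while it called 27 with the dimmer genes removed at the median, 28 with eBayes given a trend and 31 with that trend made robust. It called 0 with any 1 library left out. With the replicate number as a block, 0 genes and 0 members were called, and the difference of Hdac3 was -0.088 (SE 0.069, adjusted p of 0.561 in limma). Deviations of same-numbered libraries had correlations of -0.10, -0.079 and 0.015 across genes, and 0 of 6 libraries matched best with their own number. Whether same-numbered libraries share more than a number was not tested.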

Other observations

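The gap between the 2 Hdac1 probe sets, singled out after its values were seen, was steadier within a group than either signal. The brighter minus the dimmer probe set was 0.238, 0.236 and 0.256 log2 in SAHA replicates 1 to 3, against 0.164, 0.156 and 0.175 log2 in saline replicates 1 to 3. The gap averaged 0.243 ± 0.011 in SAHA and 0.165 ± 0.0100 in saline (SD, n = 3 each), a difference of 0.078, and the groups did not overlap. Since the gap was picked for this, no p-value is given for it. How many other genes with more than 1 probe set have such a gap was not counted. Signals of 2 probe sets are not on 1 scale, so the gap's own size has no meaning. What each of them reads was not tested.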
